A study of Mus musculus with 17 samples.

Results

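Acute-phase genes encode plasma proteins whose level changes with inflammation. The 7 genes described here were haptoglobin (Hp), serum amyloid A3 (Saa3), orosomucoid 1 (Orm1), ceruloplasmin (Cp) and 3 serine protease inhibitors of the Serpina3 group (Serpina3n, Serpina3g and Serpina3c), out of 30406 genes that all 17 single-cell libraries had in common. They were chosen by their measured levels in these libraries: Hp was higher in skin macrophages, and Serpina3c lower in skin stromal cells, after bleomycin. Cells were GFP-sorted from mice that all carried PDGFRβ-Cre and the Z/EG reporter, which turns on GFP in cells where Cre has acted and in their descendants, and were used at 8 weeks of age. SARATg mice also carried a human ZFYVE9 (SARA) cDNA in Rosa26, behind a lox-stop-lox cassette and the CAG promoter, so that it was on only where PDGFRβ-Cre had acted, and mice labelled SARAWT were wild type for it, a label that several libraries did not match. In the skin arm, bleomycin was given under the skin at 20 mg/kg, 3 times a week for 2 weeks, and PBS was the control (SARAWT, 3 libraries each; SARATg, 1 library each). This schedule is that of the sample labels, while the study's methods describe bleomycin as given every day. In the kidney arm, aristolochic acid was given into the peritoneum at 5 mg/kg, 3 times a week for 3 weeks, against vehicle (SARAWT, 3 libraries each; SARATg, 2 vehicle libraries and 1 aristolochic acid library). The labels do not say whether libraries came from separate animals, so p-values measure the spread between these libraries.

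In the acute-phase response, cytokines such as IL-6 and IL-1 act mainly on hepatocytes, through STAT3, C/EBP and NF-κB factors, and raise the secretion of plasma proteins. The same genes are also used outside the liver. Haptoglobin binds free hemoglobin and is stored in neutrophil granules, serum amyloid A3 is a local serum amyloid made by macrophages and stromal cells, orosomucoid is a small carrier protein, ceruloplasmin is a copper-carrying ferroxidase, and the Serpina3 group is an expanded mouse family related to human antichymotrypsin.

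The genes lie at separate places in the genome (mm10), except for the Serpina3 group. Hp was at chr8:109575128-109579172 on the minus strand, Saa3 at chr7:46711998-46715700 on the minus strand, Orm1 at chr4:63344560-63348163 on the plus strand and Cp at chr3:19957054-20009145 on the plus strand. Serpina3c (chr12:104146382-104153870, minus), Serpina3g (chr12:104236245-104241939, plus) and Serpina3n (chr12:104406729-104414329, plus) belong to a run of 14 annotated genes, 10 of them protein-coding, that spans 302 kb of chromosome 12. All 7 are protein-coding. Where related genes (Orm1 with Orm2 and Orm3, Saa3 with Saa1 and Saa2, and the Serpina3 genes) share sequence, reads can be split or dropped in counting. Values of these genes are uncertain to that extent, and how alike their transcripts are was not measured.

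The 200 bases from 250 to 51 bases before the start site are shown for 3 of the genes (RefSeq, GRCm38.p6, 5′ to 3′ on the gene's own strand), because Saa3 was higher and Serpina3c lower with bleomycin in skin stromal cells, and Serpina3n is the relative of Serpina3c that the same cells also expressed. Capitals mark a match to the C/EBP motif TTNNGCAA.
Saa3, chr7:46715727-46715926, minus strand: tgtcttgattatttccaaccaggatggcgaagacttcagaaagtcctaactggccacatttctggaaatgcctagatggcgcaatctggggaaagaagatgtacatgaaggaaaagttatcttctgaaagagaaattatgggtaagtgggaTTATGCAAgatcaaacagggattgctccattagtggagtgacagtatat
Serpina3c, chr12:104153923-104154122, minus strand: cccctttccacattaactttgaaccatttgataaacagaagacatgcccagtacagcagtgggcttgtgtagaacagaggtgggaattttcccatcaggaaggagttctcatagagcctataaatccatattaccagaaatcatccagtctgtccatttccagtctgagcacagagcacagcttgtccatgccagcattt
Serpina3n, chr12:104406458-104406657, plus strand: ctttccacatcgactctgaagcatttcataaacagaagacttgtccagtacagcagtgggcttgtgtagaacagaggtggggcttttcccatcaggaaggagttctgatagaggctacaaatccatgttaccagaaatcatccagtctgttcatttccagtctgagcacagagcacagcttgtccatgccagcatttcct
The Serpina3c and Serpina3n windows were identical at 183 of 203 alignment columns (90.1%), against 45.8% for Serpina3c and Serpina3g. Windows were read for 5 of the 7 genes, and the motifs STAT (TTCNNNGAA), C/EBP (TTNNGCAA) and NF-κB (GGGA and TTCC with any 2 bases between them) were searched on both strands. A C/EBP match was found in Saa3, as TTATGCAA from 99 to 92 bases before the start site, and at the second start site of Cp, as TTTTGCAA from 70 to 63 bases before it. Of 32851 promoter windows of this length, 8.11% held the C/EBP motif, 5.76% the STAT motif and 0.935% the NF-κB motif. A match is a string of letters only, and the lack of one says nothing about the factors.

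The 8 skin libraries held between 3355217 and 69765525 UMIs (unique transcript counts) and the 9 kidney libraries between 28660151 and 137093834. Cells were gated into classes by marker genes, and a level is given as CPM, the UMIs of the gene among all UMIs summed over the gated cells of a library, scaled to a total of 1000000. Although the cells are labelled PDGFRb+GFP+, Pdgfrb was 1.10 CPM in skin macrophages against 115 CPM in skin stromal cells and 459 CPM in mural cells, while Ptprc, the pan-leukocyte gene encoding CD45, was 550 CPM in skin macrophages. Several libraries did not match their labels. Mouse Zfyve9 was 621 CPM in the skin library labelled SARAWT PBS 3 against 7.75 to 26.0 in the other SARAWT skin libraries and 314 and 224 in the SARATg libraries. The human ZFYVE9 gene was in the longer gene list only, and in the 4 skin libraries counted with that list, all labelled SARAWT, it was at 843 CPM (PBS 1), 188 (PBS 2), 87.8 (bleomycin 1) and 113 (bleomycin 2). So 5 of the 6 skin libraries labelled SARAWT held SARA transcripts that go against the label, and a low mouse Zfyve9 level is no check where the human gene was counted. SARAWT and SARATg are therefore used as the labels give them. In kidney mouse Zfyve9 was 167 CPM in the library labelled SARAWT aristolochic acid 1 and 20.7 in the one labelled SARATg aristolochic acid 1. The 4 skin libraries counted with the longer gene list (SARAWT PBS 1 and 2 and bleomycin 1 and 2) held Xist and almost no Ddx3y, the other 4 the reverse. Those with the longer list shared 7.38% to 55.5% of their cell barcodes with other libraries, so that sex, counting run and shared barcodes cannot be told apart. The 55.5% belonged to SARAWT PBS 2, which had 781 kept cells. Its median was 1105 UMIs per barcode, against 4861 to 10427 in the other skin libraries. The kidney library labelled SARAWT vehicle 3 stood apart from the other SARAWT vehicle libraries in some measures. In its proximal tubule Havcr1, an injury marker, was 60.2 CPM against 0.97 and 3.57 in the other SARAWT vehicle libraries and 34.6, 19.8 and 30.4 with aristolochic acid (a gene chosen after values were seen). In other measures it lay with the SARAWT vehicle libraries. The monocyte markers in its macrophages summed to 957 CPM, against 1175 and 710 in vehicle 1 and 2 and 1589 to 2396 with aristolochic acid. The T cell markers in its proximal tubule summed to 16.9 CPM, below the 23.0 to 69.9 with aristolochic acid. In SARATg these sums did not follow treatment as clearly. The monocyte markers were at 975 and 1588 CPM with vehicle and 995 with aristolochic acid, and the T cell markers at 17.3 and 25.9 against 26.6. These sums therefore do not settle the label of vehicle 3.

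The 7 genes were expressed in different cells. Hp was a myeloid gene in both tissues, Orm1 a keratinocyte gene, Serpina3c and Serpina3n stromal genes of the skin, and Cp was spread over skin endothelial, muscle and stromal cells and kidney macrophages and proximal tubule. Serpina3g had its highest means in NK cells (56.9 CPM), innate lymphoid cells (45.5), keratinocytes (22.6) and macrophages (12.96) in skin and in T cells (105) and dendritic cells (88.3) in kidney. Of the 7 genes Serpina3c was the most restricted in skin, with a mean of 89.9% of its UMIs per skin library in the stromal gate, followed by Serpina3n with 77.8% in stromal cells and Orm1 with 64.4% in keratinocytes. In kidney, Serpina3c had a median of 0 CPM in every class among the classes with at least 10 cells in several libraries, and 39 stromal cells of the library labelled SARATg vehicle 2 held 5 Serpina3c UMIs (20.4 CPM). For each gene the 4 highest classes of a tissue were compared within libraries, 39 pairs of neighbours in all. With at most 9 libraries, no single pair could pass an exact two-sided sign-flip permutation test after adjustment over all of them, and the classes were ranked on the same libraries, so the orders are a description. The higher class was above the lower in every library that held both for 6 pairs, 4 of Hp, keratinocytes over muscle for Orm1 and muscle over stromal cells for Cp (4 libraries each for the last 2). In the other 33 pairs at least 1 library did not follow the order.

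**Figure D1:**
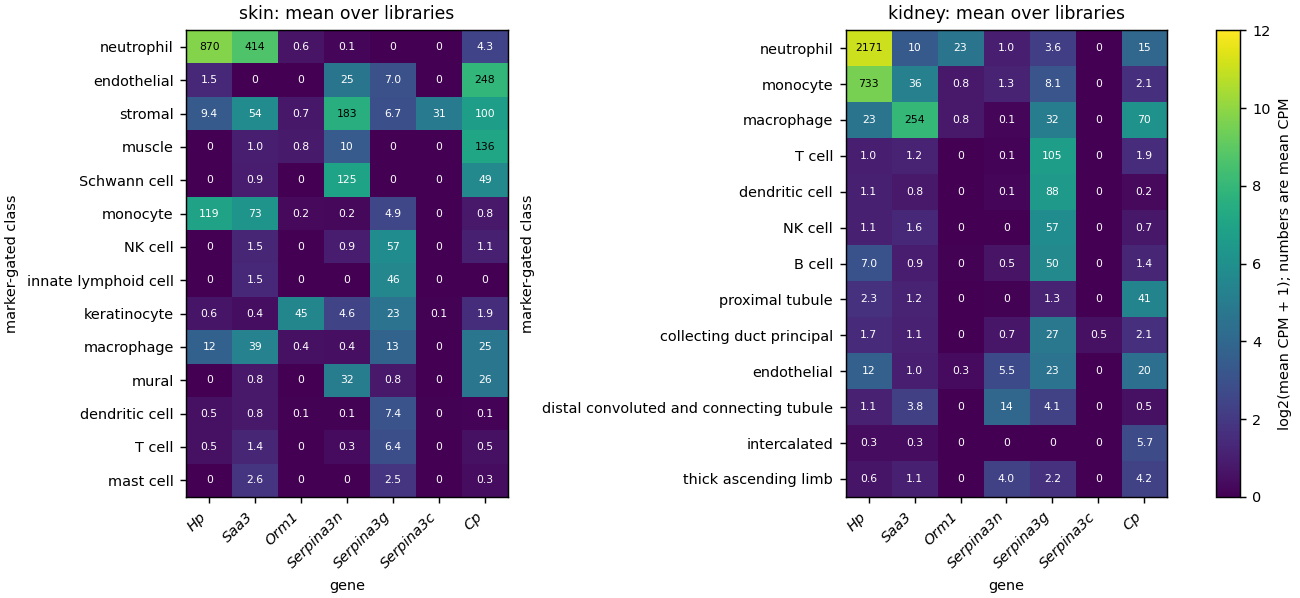
Mean CPM of the 7 genes (columns) in each marker-gated cell class (rows) over the libraries with at least 10 cells of that class, skin on the left and kidney on the right. Color is log2(mean CPM + 1); Hp peaks in neutrophils at 870 CPM in skin and 2171 in kidney, and Serpina3c is found in skin stromal cells.

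Hp followed the same order of classes in both tissues. In skin its mean was 870 ± 222 CPM (SD, n = 7) in neutrophils, 119 ± 80.0 (n = 8) in monocytes and 12.2 ± 13.3 (n = 8) in macrophages. In kidney it was 2171 ± 562 in neutrophils, 733 ± 276 in monocytes and 23.3 ± 15.5 in macrophages (n = 9). Neutrophils were above monocytes in 9 of 9 kidney libraries, by 1.61 ± 0.46 on the log2(CPM + 1) scale (SD), and monocytes above macrophages in 9 of 9 by 5.12 ± 0.98. In skin the same order held in 7 of 7 and 8 of 8 libraries. These counts are a description, since the order was read from the same libraries and Hp in skin macrophages was among the values that chose the genes. The plot of Hp along the myeloid classes shows these steps. Over 29 classes of both tissues, the genes whose mean log2 level was most like that of Hp were Gm5150, Trem3 and Fpr2 (Pearson's r = 0.92, 0.90 and 0.90 over classes, of 14500 genes); classes of a library share cells' handling and depth, so r is a description.

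**Figure D2:**
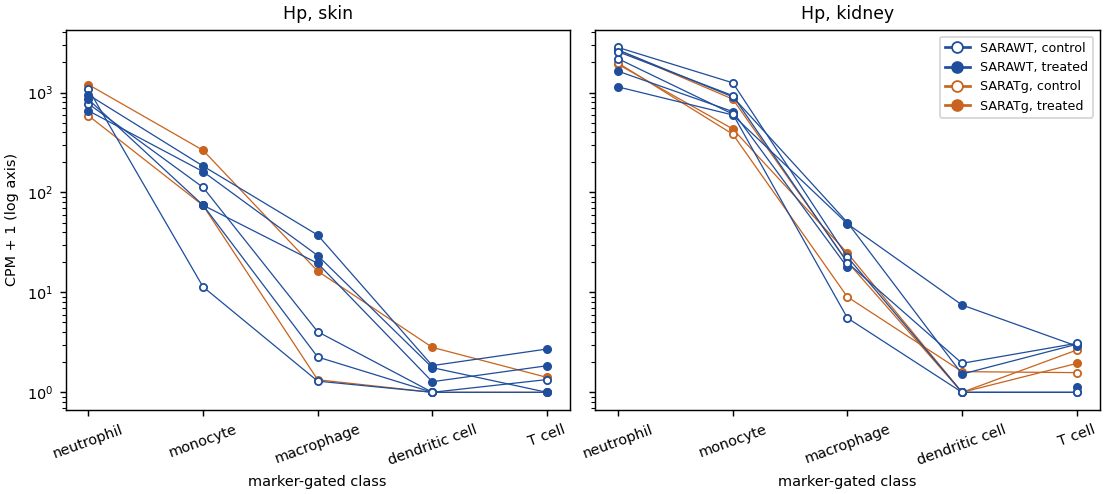
Hp level (CPM + 1, log axis) in 5 marker-gated classes; each line is a library, open symbols PBS or vehicle, filled symbols bleomycin or aristolochic acid, blue SARAWT and orange SARATg. Every line steps down from neutrophils to monocytes to macrophages, and in skin the bleomycin libraries lie above the PBS libraries in macrophages. In skin neutrophils the SARAWT groups overlap and the SARATg library with bleomycin lies above the one with PBS.

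A further source of Hp was a handful of cells in the adipocyte gate, 8 in 4 SARAWT skin libraries. Hp was 16334 CPM in the only such cell of PBS 1, 21526 in the only one of PBS 2, 11452 in the only one of bleomycin 1 and 8439 over 5 cells of bleomycin 2. In PBS 1 and 2 this was 9 of 551 and 11 of 511 UMIs of the cell. Of the 8 cells 7 held Hp, and their 675 UMIs made up 10.3% to 50.4% of the Hp UMIs of those libraries. All 4 libraries were counted with the longer gene list and shared more barcodes than the other skin libraries. The class was below the minimum of 10 cells in each and too small to compare between treatments.

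Hp in skin macrophages was one of the values that chose the genes and is described without a test. It was 0.29, 1.26 and 3.04 CPM in the SARAWT PBS libraries (3, 1 and 27 UMIs) and 22.4, 18.5 and 36.5 in the bleomycin libraries. All bleomycin libraries were above all PBS libraries, with means of 1.53 ± 1.39 and 25.8 ± 9.46 CPM (SD, n = 3), a 16.9-fold difference. The difference was 33.3-fold without the library labelled PBS 3 and 9.41-fold without barcodes that libraries share. It held within each counting run, at 0.29 and 1.26 against 22.4 and 18.5 CPM with the longer gene list and 3.04 against 36.5 with the shorter. The SARATg libraries stood at 0.34 CPM with PBS (95% counting interval 0.041 to 1.21) and 15.3 with bleomycin (13.5 to 17.2); such intervals cover counting error only. Of the 7 genes, 4 passed the low-count filter in macrophages and 2 of these (Hp and Saa3) were higher with no overlap, and 0 were lower, where 8.31% and 9.45% of 11338 genes were.

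The Hp UMIs were carried by a minority of macrophages. A UMI was found in 0.237%, 0.746% and 2.30% of PBS macrophages and in 6.86%, 4.33% and 12.5% of bleomycin macrophages. Thinned to 1000 UMIs a cell, the shares were 0.033%, 0.47% and 0.26% (1230, 109 and 647 cells deep enough) against 1.61%, 1.10% and 3.00% (697, 584 and 1151 cells). T cells, which should lack Hp, were at 0% to 0.149% after thinning, at median depths of 5522 to 8676 UMIs against 5142 to 13173 in SARAWT macrophages. The bleomycin shares were above this background, and the PBS macrophages of PBS 1 lay within it.

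Markers of other myeloid cells moved with this result in part. In macrophage-gated cells the monocyte genes Ly6c2 (4.01, 2.51 and 17.5 CPM with PBS; 344, 325 and 233 with bleomycin) and Plac8 (58.8, 35.1 and 38.6; 634, 442 and 348) were higher with no overlap. The share of these cells with a UMI of either was 13.4%, 12.7% and 10.6% with PBS and 62.5%, 50.4% and 48.7% with bleomycin. The 8 monocyte markers summed to 1570 to 2684 CPM with PBS and 2330 to 2409 with bleomycin, with 0 to 2 markers at 0, and the 8 neutrophil markers to 77.2 to 161 and 81.8 to 145 CPM, with 0 to 3 at 0. Ly6c2 and Plac8 belong to the monocyte list, and the list as a whole did not follow them. Its sum in PBS 1 (2684 CPM) was above every bleomycin library, although both genes were lower there. In PBS 2 and 3 (1699 and 1570 CPM) it was below every bleomycin library. Among cells with no UMI of Ly6c2 or Plac8, Hp was 0.35, 1.41 and 1.87 CPM with PBS and 12.1, 15.8 and 29.1 with bleomycin. Among cells with no UMI of any neutrophil marker it was 0.32, 2.11 and 2.90 and 12.9, 13.1 and 13.6. The groups did not overlap in either subset. Among cells with no UMI of any of the 8 monocyte markers, Hp was at 0 UMIs in all PBS libraries (69, 19 and 49 cells) and in bleomycin 1 and 2 (69 and 52 cells), and 2 UMIs in 59 cells gave 7.65 CPM in bleomycin 3, so the groups did not separate. In SARATg, Hp had 0 UMIs in 60 such cells with PBS and 1 UMI in 52 cells (2.85 CPM) with bleomycin. That subset was 4.12% to 14.2% of the gate over the 8 skin libraries, and its depth was low: in bleomycin 1, 3 Saa3 UMIs in it amounted to 24.1 CPM. All 3 subsets were chosen after values were seen, and the part of these markers in the whole-gate difference was not tested further.

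Saa3, an apolipoprotein released in inflammation, was higher in the same gate. It was 0.59, 3.77 and 1.46 CPM with PBS and 39.1, 16.5 and 218 with bleomycin, and 0 against 33.7 in SARATg. The groups did not overlap, and the bleomycin libraries differed widely: their mean of 91.2 ± 110 CPM was 47.0-fold the PBS mean with bleomycin 3 and 14.3-fold without it (88.9-fold without PBS 2). Of 3303 Saa3 UMIs in bleomycin 3, 14 of 1167 cells held 90%. Among cells with no UMI of Ly6c2 or Plac8 the Saa3 groups overlapped, at 0.46, 4.22 and 1.62 against 21.4, 3.22 and 206 CPM, higher in 2 of 3 same-numbered pairs. The pair count is a description, since replicate numbers do not set pairs apart in macrophages. The genes most like Saa3 over classes were Gpr84, Fpr2 and C5ar1 (r = 0.89, 0.84 and 0.83).

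The other myeloid classes did not separate in this way, or did so on few UMIs. In skin monocytes, Hp was 10.4, 73.6 and 111 CPM with PBS and 161, 73.6 and 183 with bleomycin, overlapping at the middle library, higher in same-numbered pairs 1 and 3 and equal at this precision in pair 2 (4 UMIs in 11 cells of PBS 2), and Saa3 was 0, 0 and 280 against 109, 4.84 and 106, higher in 2 of 3 pairs. The monocyte gate held 11 to 280 cells per PBS library, and of 6525 genes 5.38% were higher and 5.81% lower with no overlap. In dendritic cells Hp was 0 CPM in each PBS library and 0.77, 0.28 and 0.85 with bleomycin, from 3, 1 and 7 UMIs, too few to pass the low-count filter. Serpina3g, which passed it, was 5.02, 6.94 and 2.37 CPM with PBS and 17.6, 9.96 and 4.49 with bleomycin and overlapped, and 8.03% of 9877 genes were higher and 10.4% lower with no overlap. In skin neutrophils, which were not among the cells that chose the genes, Hp was 1080 and 771 CPM with PBS and 656, 852 and 947 with bleomycin (log2 fold change −0.16, SE 0.34, edgeR adjusted p = 0.996), so its levels overlapped. In SARATg neutrophils Hp was 586 CPM with PBS (95% counting interval 408 to 815, 25 cells) and 1199 with bleomycin (1141 to 1260), the lowest and the highest of the skin libraries, and this was not tested. Saa3 there was 0 and 199 against 1477, 0 and 212 CPM (log2 fold change 2.12, SE 1.16, edgeR adjusted p = 0.979). With a replicate block the edgeR adjusted p was 0.0398, although replicate numbers were not taken to pair samples in these cells. PBS 2 had 9 neutrophils and could not enter. Of 2700 genes tested in neutrophils, 0 (0%) passed the edgeR test, with 123 at an unadjusted p under 0.05 and 6 by DESeq2.

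**Figure D3:**
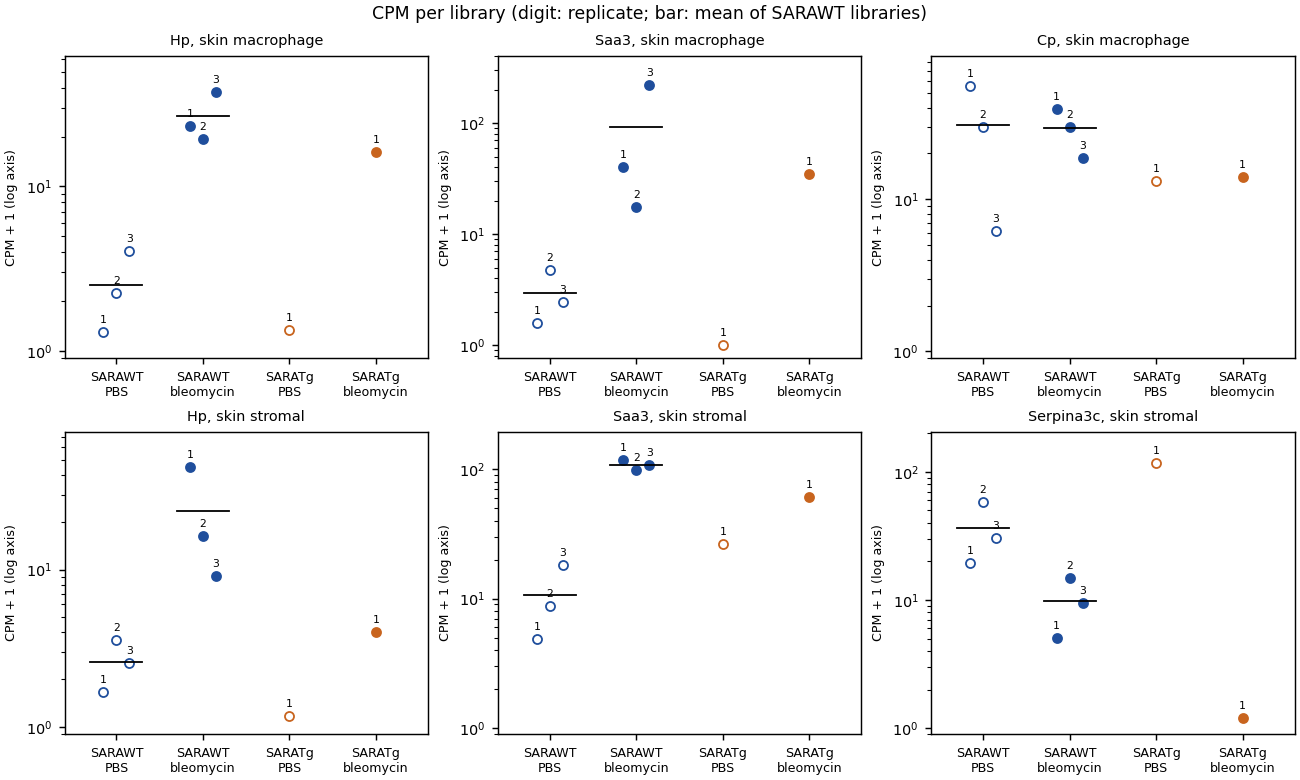
CPM + 1 (log axis) of Hp, Saa3 and Cp in skin macrophages (top) and of Hp, Saa3 and Serpina3c in skin stromal cells (bottom); each point is a library with its replicate number, open PBS and filled bleomycin, blue SARAWT and orange SARATg, and bars are the means of the 3 SARAWT libraries. Hp and Saa3 lie higher with bleomycin in both classes, Serpina3c lower in stromal cells, and Cp overlaps in macrophages.

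Skin stromal cells also had higher levels of Hp and Saa3 with bleomycin, again described without a test. Saa3 was 3.88, 7.68 and 17.3 CPM with PBS and 117, 97.2 and 106 with bleomycin (25.5 and 60.3 in SARATg), an 11.1-fold difference of means (9.61 ± 6.90 and 107 ± 10.1), and 18.5-fold without PBS 3. The bleomycin libraries lay close together and did not overlap with PBS, but few cells carried the UMIs. In bleomycin 1, 292 UMIs came from 5 of 159 cells and 219 of them from a single cell; in bleomycin 2, 133 of 140 UMIs came from a single cell; in bleomycin 3, 113 of 248 did. With the cell richest in Saa3 taken out of each library, the levels were 2.1, 3.8 and 1.0 CPM with PBS and 30.1, 4.9 and 58.0 with bleomycin. Without barcodes that libraries share, bleomycin 1 was at 6.30 CPM, below the 17.4 of PBS 3, and the groups overlapped.

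Hp in stromal cells was 0.67, 2.56 and 1.55 CPM with PBS and 43.8, 15.3 and 8.10 with bleomycin, and 0.17 against 2.98 in SARATg. The groups did not overlap. The means differed 14.1-fold, and 7.34-fold without bleomycin 1, where 82 of 109 UMIs came from a single cell. Without barcodes that libraries share, Hp was 0.42, 0 and 1.57 CPM with PBS and 2.10, 21.0 and 8.25 with bleomycin. The groups then stood apart by little, at 1.57 CPM in PBS 3 and 2.10 in bleomycin 1. Saa1 and Saa2, the liver-type serum amyloids, were at 127 and 35.4 CPM in stromal cells of bleomycin 2 and at no more than 3.41 CPM in those of any other library. In this gate the 9 macrophage markers summed to 45.4 to 61.4 CPM with PBS and 21.3 to 54.2 with bleomycin. The 8 neutrophil markers summed to 88.1 to 222 and 64.6 to 104, and the 8 monocyte markers to 1031 to 1984 and 1435 to 1769. For each of these lists the groups overlapped. The monocyte list holds Fn1, which the study reported mostly in its noncanonical pericyte clusters. Its sum is therefore not specific to monocytes in this gate, and its overlap does not show whether monocyte content differed. Adipocyte markers were not summed in this gate, and sums over a gate do not show what a single cell rich in Hp is.

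Serpina3c in skin stromal cells, the other value that chose the genes, was 18.3, 57.6 and 29.7 CPM with PBS and 4.02, 13.9 and 8.53 with bleomycin. Each bleomycin library was below each PBS library, and the means of 35.2 ± 20.2 and 8.81 ± 4.94 CPM (SD, n = 3) differed 3.99-fold. With 1 library left out, the difference ran from 2.72-fold (without PBS 2) to 5.61-fold (without bleomycin 2). The direction was the same within each counting run, at 18.3 and 57.6 against 4.02 and 13.9 CPM with the longer gene list and 29.7 against 8.53 with the shorter. Without shared barcodes the difference was 2.26-fold and the bleomycin library 2, at 21.0 CPM, lay within 0.5 CPM of PBS 1, at 21.5. In SARATg it was 116 CPM with PBS (95% counting interval 111 to 121) and 0.20 with bleomycin (3 UMIs in 452 cells, 0.041 to 0.58). Of the 7 genes, 6 passed the low-count filter in stromal cells; 1 was lower and 2 were higher with no overlap, where 15.1% and 13.8% of 10633 genes were.

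The level of Serpina3c was compared within a subset of stromal cells, chosen after values were seen. Pi16 marks adventitial, progenitor-like fibroblasts, and its own level was 871, 1167 and 320 CPM with PBS and 105, 225 and 38.0 with bleomycin. Stromal cells with a Pi16 UMI made up 41.4%, 31.4% and 25.4% of the gate with PBS and 15.7%, 21.0% and 9.66% with bleomycin. Within them Serpina3c was 39.4, 77.2 and 40.9 CPM with PBS and 63.0, 32.3 and 48.3 with bleomycin, so the groups overlapped. Among stromal cells with no Pi16 UMI it was 1.21, 19.0 and 25.0 against 0.85, 6.74 and 3.37, and again overlapped. Between libraries with the same replicate number, which deviated together in these cells, it was lower with bleomycin in 3 of 3 pairs without a Pi16 UMI and in 1 of 3 with one; 3 pairs allow no exact p below 0.25. The bleomycin levels within the Pi16 subset rested on 8, 13 and 13 UMIs in 25, 45 and 14 cells, and median depth differed between libraries (1060 to 12971 UMIs a cell with PBS, 1110 to 9288 with bleomycin). The part of depth and of the size of the subset in these values was not tested. In SARATg, Serpina3c was 110 CPM with PBS and 0 UMIs in 24 cells with bleomycin within the Pi16 subset, and 121 against 0.21 outside it. The genes most like Serpina3c over classes were C7, Cartpt and Sfrp4 (r = 0.99 each). Mean Serpina3c was 31.0 CPM in skin stromal cells and at most 0.46 CPM in any other class found in several libraries. These r values therefore rest mainly on that class and do not show that the genes vary together within it.

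Serpina3n, its neighbor in sequence, is a secreted inhibitor of serine proteases. In stromal cells it was 84.0, 397 and 248 CPM with PBS and 142, 247 and 119 with bleomycin. The groups overlapped, unlike those of Serpina3c, with lower values in 2 of 3 same-numbered pairs, and in SARATg it was 201 CPM with PBS and 21.3 with bleomycin. Cp in stromal cells was 45.5, 97.3 and 52.6 against 57.9, 400 and 77.2 CPM, and the 2.74-fold difference of means was 1.04-fold without bleomycin 2, although Cp was higher in 3 of 3 same-numbered pairs. Serpina3g in stromal cells was 2.11, 7.68 and 4.07 against 14.9, 12.5 and 3.84 CPM and overlapped, higher in 2 of 3 pairs. Serpina3n in Schwann cells was 14.7 and 46.5 CPM in PBS 1 and 3 and 217 and 66.7 in bleomycin 1 and 3 (1, 8, 39 and 8 UMIs in 14 to 27 cells; the other libraries had under 10 cells), with 34.1 and 370.5 in SARATg, and was not tested. In macrophages Cp was 54.8, 28.9 and 5.18 against 38.1, 28.8 and 17.7 CPM, and Serpina3g 11.4, 2.51 and 1.80 against 30.1, 33.2 and 5.68 CPM. The groups overlapped for both, and Serpina3g was higher in 3 of 3 same-numbered pairs and Cp in 1. Replicate numbers do not set pairs apart in macrophages, so these counts are a description.

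Keratinocytes were not among the classes used to choose the genes, although the genes were chosen with earlier results of these data known. In keratinocytes both members that could be tested were higher with bleomycin in every SARAWT library, and neither passed the edgeR test after adjustment. Orm1 was 3.96, 30.6 and 17.4 CPM with PBS (6, 4 and 93 UMIs) and 55.8, 116 and 36.7 with bleomycin (12, 54 and 24 UMIs). The groups did not overlap, with a log2 fold change of 2.45 (SE 0.62, edgeR unadjusted p = 0.00263, adjusted p = 0.204). By DESeq2 the adjusted p was 0.0276, and over all alternatives it ran from 5.29e-06 to 0.467. Serpina3g was 9.90, 22.9 and 8.96 CPM with PBS and 32.6, 38.8 and 27.5 with bleomycin, again with no overlap (log2 fold change 1.74, SE 0.42, edgeR adjusted p = 0.181, and from 0.059 to 0.510 over the alternatives). The means of Orm1 differed 4.03-fold, and 6.54-fold without PBS 2, which held 18 keratinocytes, and 2.67-fold without bleomycin 2. Of 6169 genes tested, 0 (0%) passed, with 662 at an unadjusted p under 0.05 and 45 by DESeq2, and 5.41% were higher and 10.7% lower with no overlap. Within each counting run the direction was the same, at 17.4 against 36.7 CPM for Orm1 and 8.96 against 27.5 for Serpina3g with the shorter gene list and with no overlap among the libraries of the longer one.

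In the SARATg libraries the values lay in the other direction. Orm1 was 61.2 CPM with PBS (95% counting interval 54.1 to 69.0) and 34.8 with bleomycin (28.7 to 42.0), and Serpina3g 22.5 (18.3 to 27.4) and 17.9 (13.5 to 23.2), whose intervals overlap. With 1 library per group the difference between genotypes was not tested, and 5 of the 6 libraries labelled SARAWT held SARA transcripts against their label. Orm2 had at most 0.314 CPM and Orm3 0 in keratinocytes of every skin library. Keratinocyte gates were small with bleomycin, at 30, 45 and 58 cells. In SARAWT keratinocytes the 9 stromal markers summed to 68.8 to 236 CPM with PBS and 21.6 to 60.5 with bleomycin, and the 9 macrophage markers to 7.64 to 45.5 and 30.6 to 43.1. The 8 neutrophil markers summed to 11.9, 22.9 and 291 CPM in PBS 1, 2 and 3 and 18.6 to 42.8 with bleomycin. In SARATg, from PBS to bleomycin, the sums were 187 and 43.6 CPM for stromal, 37.8 and 24.8 for macrophage and 21.9 and 374 for neutrophil markers. The part of these markers in the levels was not tested. The genes most like Orm1 over classes were Crct1, Stfa3 and BC100530 (r = 0.93, 0.82 and 0.81).

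**Figure D4:**
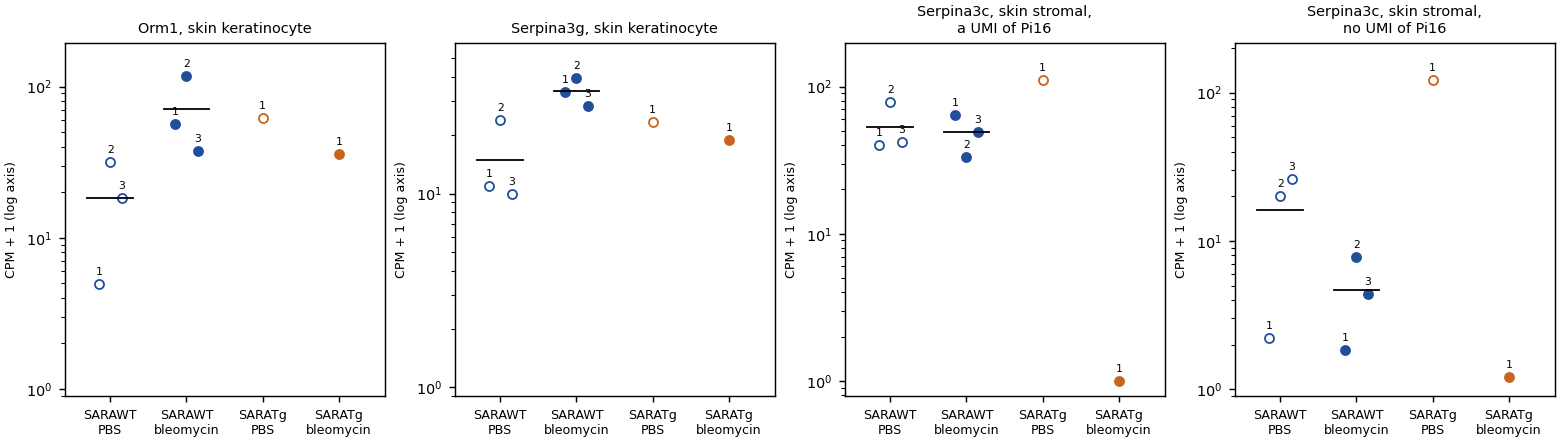
CPM + 1 (log axis) per skin library, with the replicate number beside each point, open PBS and filled bleomycin, blue SARAWT and orange SARATg, bars the means of SARAWT libraries. Orm1 and Serpina3g in keratinocytes lie higher with bleomycin in SARAWT and lower in SARATg, and Serpina3c in stromal cells split by Pi16 overlaps between SARAWT groups in both subsets.

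In the remaining skin classes no member passed. In endothelial cells Cp was 362, 126 and 206 CPM with PBS and 245 and 145 with bleomycin (bleomycin 2 had 9 cells and could not enter), with a log2 fold change of −0.39 (SE 0.46, edgeR adjusted p = 0.804), where 37 of 4504 genes (0.821%) passed. In SARATg endothelial cells Cp was 625 CPM with PBS (95% counting interval 506 to 763, 38 cells) and 28.9 with bleomycin (7.88 to 74.0, 4 UMIs in 17 cells), above and below every SARAWT library, and was not tested. In the joint fit of T, NK and innate lymphoid cells Serpina3g differed by −0.20 (SE 0.55, edgeR adjusted p = 0.986), with 0 of 9440 genes (0%) passing, 514 at an unadjusted p under 0.05 and 41 by DESeq2. In mast cells no member passed the low-count filter, and 0 of 2738 genes (0%) passed the edgeR test (68 unadjusted, 1 by DESeq2).

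In kidney the question was whether aristolochic acid, a plant nephrotoxin that injures proximal tubule, moved the same genes. Xist marked the libraries SARAWT vehicle 2 and SARATg aristolochic acid 1 (1328 and 1322 CPM) and Ddx3y the other 7, so sex was uneven between the groups and its part was not tested. Cp in SARAWT proximal tubule was 0.81, 2.18 and 54.9 CPM with vehicle, the last in the library labelled vehicle 3, and 84.9, 23.5 and 105 with aristolochic acid. Libraries 1 and 2 of vehicle were far below all others, and vehicle 3 lay among the treated. The log2 fold change was 1.67 (SE 1.44, edgeR adjusted p = 0.636), and 5.40 (edgeR adjusted p = 0.0309) without vehicle 3, where 477 of 12909 genes (3.7%) passed; with the library labelled SARAWT aristolochic acid 1 also left out it was 5.21 (edgeR adjusted p = 0.102), where 0 of 14233 genes (0%) passed and 2530 had an unadjusted p under 0.05 (no DESeq2 fit was run). Serpina3g, at 0.041, 0.071 and 2.62 against 3.91, 0.67 and 2.29 CPM, differed by 1.23 (SE 1.55, edgeR adjusted p = 0.744) and by 5.12 without vehicle 3 (edgeR adjusted p = 0.0458). Leaving out vehicle 3, the vehicle library that lay among the treated, sets the groups apart for both genes. The p-values without it are therefore a description. In SARATg proximal tubule Cp was 2.99 and 13.2 CPM with vehicle and 82.4 with aristolochic acid, and Serpina3g was 0.080 and 1.04 against 0.87 and overlapped. Hp (−0.39, SE 1.08, edgeR adjusted p = 0.889) and Saa3 (0.017, SE 0.64, edgeR adjusted p = 0.992) were at no more than 5.37 and 2.29 CPM in SARAWT proximal tubule, and their groups overlapped. With all libraries 0 of 12726 genes (0%) passed in proximal tubule, with 976 at an unadjusted p under 0.05 and 59 by DESeq2.

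In kidney macrophages vehicle 3 again stood above vehicle 1 and 2. Cp was 6.81, 13.1 and 139 CPM with vehicle and 79.5, 122 and 155 with aristolochic acid (18.8 and 36.9 against 59.6 in SARATg). Serpina3g, a leukocyte inhibitor of cathepsins, was 3.03, 0.85 and 93.0 against 74.5, 15.3 and 38.4 CPM (16.4 and 1.09 against 44.4 in SARATg). For both genes vehicle 1 and 2 were below every treated library and vehicle 3 was not. With all libraries the log2 fold changes were 0.95 (SE 0.92, edgeR adjusted p = 0.810) for Cp and 0.17 (SE 1.15, edgeR adjusted p = 0.986) for Serpina3g. Without vehicle 3 they were 3.50 (edgeR adjusted p = 0.0054) and 4.76 (edgeR adjusted p = 0.019), where 1247 of 9909 genes (12.6%) passed. With the library labelled SARAWT aristolochic acid 1 also left out they were 3.74 (edgeR adjusted p = 0.0022) and 4.10 (edgeR adjusted p = 0.0142), where 10% passed. Leaving out vehicle 3, the vehicle library that was not below the treated, sets the groups apart for these genes. The p-values without it are therefore a description. With all libraries 0 of 10669 genes (0%) passed, with 766 at an unadjusted p under 0.05 and 43 by DESeq2.

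Of the marker lists of other cells summed in these gates, 1 followed the arrangement of libraries seen for Cp. The 8 neutrophil markers did not follow it in either gate. In macrophages they summed to 42.4, 73.4 and 47.6 CPM with vehicle and 55.7, 54.1 and 58.7 with aristolochic acid. In proximal tubule they summed to 2.65, 125 and 37.6 against 16.5, 7.53 and 3.78. In kidney macrophages the 8 monocyte markers did not overlap between the SARAWT groups (sums given above, with 0 or 1 of them at 0), with vehicle 3 among the vehicle libraries, and the 11 proximal tubule markers overlapped, at 399, 184 and 85.6 CPM with vehicle and 86.0, 138 and 73.9 with aristolochic acid. In proximal tubule the 9 macrophage markers summed to 8.97, 10.7 and 58.5 CPM in vehicle 1, 2 and 3 and to 46.3, 31.5 and 86.3 with aristolochic acid, the arrangement of Cp and Serpina3g in that gate. The 8 T cell markers summed there to 12.6, 5.19 and 16.9 CPM with vehicle and 23.0, 48.3 and 69.9 with aristolochic acid, with no overlap and vehicle 3 among the vehicle libraries. Spp1 in macrophages, also chosen after values were seen, was 28.7 and 52.6 CPM in vehicle 1 and 2, 1262 in vehicle 3 and 2053, 1357 and 1464 with aristolochic acid. Their part in the result was not tested.

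Serpina3g in kidney T cells was highest in vehicle 3. It was 16.95, 28.9 and 313 CPM with vehicle and 284, 55.3 and 120 with aristolochic acid, and in SARATg 6.02 and 2.88 against 119. T and NK cells were tested together, with a log2 fold change of 0.26 (SE 0.96, edgeR adjusted p = 1.0) and 0 of 11665 genes (0%) passing (589 unadjusted, 26 by DESeq2). The lowest edgeR or DESeq2 adjusted p over the alternatives was 0.0838. In the same fit Cp (0.47, edgeR adjusted p = 0.984), Saa3 (0.10, edgeR adjusted p = 1.0) and Hp (0.25, edgeR adjusted p = 1.0) did not pass, and all 3 were at no more than 2.85 CPM in SARAWT T cells. B cells differed by −0.16 (SE 0.47, edgeR adjusted p = 0.990), and their levels of 50.7, 27.4 and 103 against 76.3, 38.6 and 66.5 CPM overlapped. There 0 of 6675 genes (0%) passed, with 312 unadjusted and 0 by DESeq2.

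**Figure D5:**
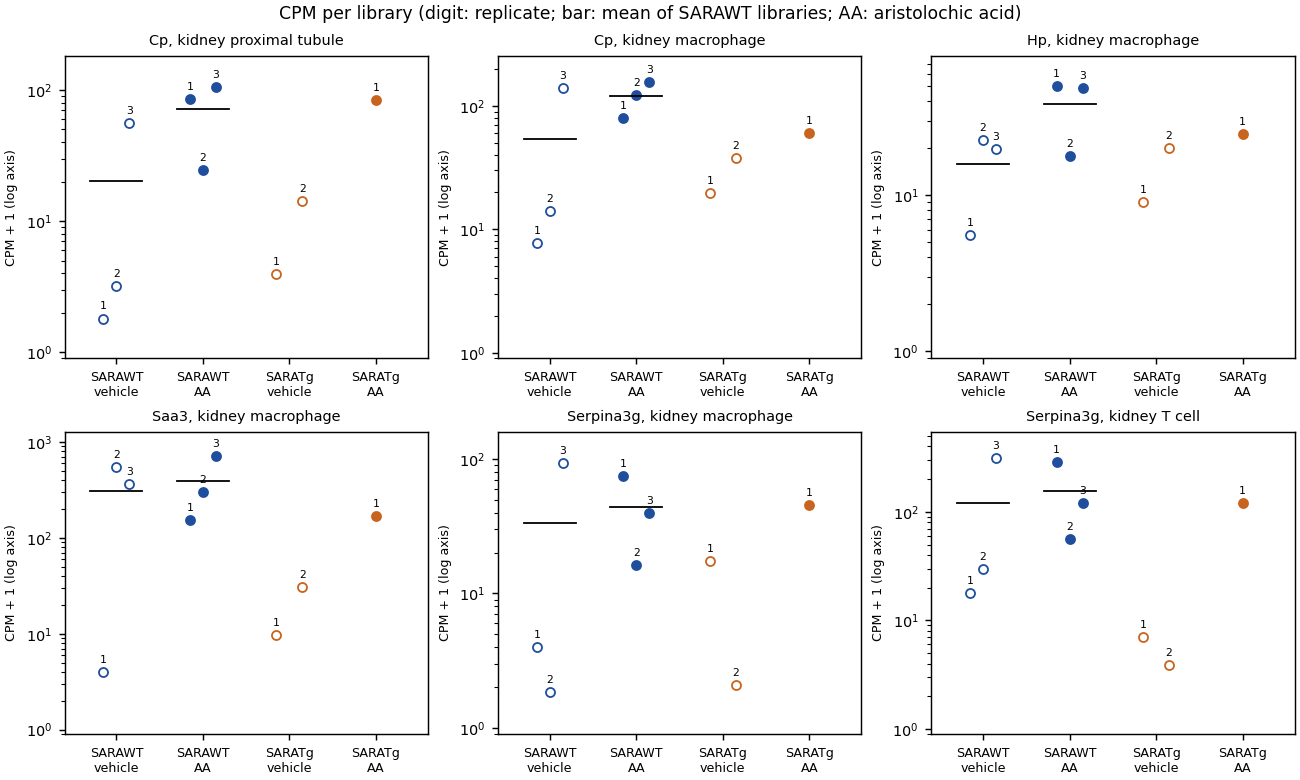
CPM + 1 (log axis) of Cp, Hp, Saa3 and Serpina3g in kidney proximal tubule, macrophages or T cells; each point is a library with its replicate number, open vehicle and filled aristolochic acid (AA), blue SARAWT and orange SARATg, and bars are the means of the SARAWT libraries. For Cp and Serpina3g the library labelled SARAWT vehicle 3 lies above vehicle 1 and 2, among the SARAWT aristolochic acid libraries or, for Serpina3g in macrophages and T cells, above them, while vehicle 1 and 2 lie below them.

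Hp and Saa3, which did not overlap between groups in skin macrophages, overlapped in kidney macrophages. Hp was 4.54, 21.6 and 18.8 CPM with vehicle and 49.0, 16.8 and 47.6 with aristolochic acid. The groups overlapped through aristolochic acid 2, with a log2 fold change of 1.21 (SE 0.50, edgeR unadjusted p = 0.0412, adjusted p = 0.692). Saa3 was 3.03, 543 and 367 against 153, 302 and 708 CPM (log2 fold change 0.28, SE 1.15, edgeR adjusted p = 0.973), and 8.71 and 30.0 against 169 in SARATg. The high value of vehicle 2 came from 7 of 456 cells, 1 of them with 386 of 1280 UMIs. Whether the effects on Hp in skin and kidney macrophages differ was not tested.

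Orm1, Serpina3n and Serpina3c were near 0 in most kidney classes. Orm1 was found in neutrophils, at 137 and 42.5 CPM in the libraries labelled SARATg vehicle and 25.5 in SARAWT vehicle 2, and at no more than 3.72 CPM in the other 6. In SARATg vehicle 1 all 19 UMIs came from a single cell. In kidney endothelial cells Cp differed by −2.44 (SE 1.25, edgeR adjusted p = 1.0) and Serpina3g by 0.17 (SE 0.95, edgeR adjusted p = 1.0), with 0 of 6939 genes (0%) passing (221 unadjusted, 8 by DESeq2). No member passed the low-count filter or the test in thick ascending limb, distal tubule or intercalated cells, where 0 of 4381 (437 unadjusted, 9 by DESeq2), 0 of 6157 (931 unadjusted, 17 by DESeq2) and 2 of 4963 genes (0.0403%) passed.

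The wider pathway was followed in 76 further genes, other acute-phase proteins, their cytokines, receptors and transcription factors. In the 13 tested comparisons 1 of them passed: Il6, the cytokine at the head of the response, in skin endothelial cells, at 629, 139 and 1720 CPM with PBS and 0 and 21.4 with bleomycin (log2 fold change −5.71, SE 1.11, edgeR adjusted p = 0.0422), where 0.821% of all genes tested passed. That gate held 64, 14 and 56 cells with PBS and 12 and 36 with bleomycin, so the Il6 levels rest on few cells. The number of genes that passed in this fit changed with the processing, as given in the closing section. In the same gate the 8 mural markers summed to 101 to 144 CPM with PBS and 432 to 505 with bleomycin. The 9 stromal markers summed to 30.5 to 156 and 4.28 to 15.3, and the part of these markers in the result was not tested. In skin macrophages, described only, 40 were measured and 8 were higher and 9 lower with no overlap, against 8.31% and 9.45% of all genes. The higher ones included C3, a complement protein (46.9 ± 6.09 to 139 ± 34.1 CPM), the serum amyloid receptor Fpr2 (12.1 ± 6.14 to 36.2 ± 10.9) and Osm, an IL-6 family cytokine (56.4 ± 17.7 to 111 ± 16.1). The lower ones included Cd163, the scavenger receptor for the haptoglobin-hemoglobin complex (421 ± 164 to 87.4 ± 74.0), Hmox1, which degrades heme (1026 ± 539 to 301 ± 20.0), Il6st (114 ± 6.54 to 49.1 ± 13.9) and Cebpd (124 ± 30.7 to 64.2 ± 22.8; SD, n = 3). Hp was higher and the receptor for its complex lower in the same gate. There the share of cells with a UMI of Ly6c2 or Plac8 was also higher in each bleomycin library than in each PBS library, as given above. The pathway genes were not examined within those subsets, and the part of that share in their levels was not tested.

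In skin stromal cells 33 pathway genes were measured; 0 were higher and 13 lower with no overlap, against 13.8% and 15.1% of all genes. They included C3 (785 ± 437 to 119 ± 58.3 CPM), the lipopolysaccharide-binding protein Lbp (164 ± 64.2 to 38.7 ± 22.5), Il6 (192 ± 136 to 60.8 ± 23.9) and the C1 inhibitor Serping1 (1134 ± 453 to 436 ± 180; SD, n = 3). Serpina3c was lower in the same gate, where the share of cells with a Pi16 UMI was also lower in each bleomycin library than in each PBS library (9.66% to 21.0% against 25.4% to 41.4%). The pathway genes were not examined within the Pi16 subset, and the part of that share in their levels was not tested. In monocytes 32 were measured with 0 higher and 3 lower (Il6, Nfkbiz and C3), against 5.38% and 5.81% of all genes. In dendritic cells 31 were measured with 1 higher (Tlr2) and 11 lower, against 8.03% and 10.4% of all genes, Cd163 (151 ± 40.2 to 27.1 ± 15.5) and Hmox1 (91.2 ± 56.0 to 21.7 ± 5.77) among them.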

How the data were processed

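Single-cell RNA-seq (10x, 3′ ends) was measured in 17 libraries. The authors deposited raw UMI counts per gene and barcode, filtered by Cell Ranger; the file headers give versions 3.0.2 (kidney), 3.1.0 and 4.0.0 (4 skin libraries, with a gene list of 32286 instead of 31053 genes), and the submitters' processing notes name Cell Ranger 3.0.2, Seurat 2.3.4 and mm10. Of 107534 barcodes, 101408 were kept, on a minimum of 200 detected genes and a limit on mitochondrial UMIs of 20% in skin and 50% in kidney, and 84668 were gated into 23 classes by 185 markers (at least 3 own markers, any other class at most 50% of that). Cells with markers of a further class stayed ungated, and no doublet caller was run. Counts were summed per library and class of at least 10 cells.

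Bleomycin or aristolochic acid was compared with its control in SARAWT with the quasi-likelihood test of edgeR 4.0.16, after its filterByExpr filter and TMM scaling, and p-values were adjusted by Benjamini-Hochberg over all genes (threshold 0.05), with DESeq2 1.42.0 as an alternative, in R 4.3.3. Classes used to choose the genes (skin macrophages, monocytes, dendritic and stromal cells) were described without a test. SARATg groups have 1 treated library each and were not tested. Class order was compared within libraries on log2(CPM + 1); the planned exact sign-flip permutation test has a smallest p of 0.00390625, too high for 1 of 39 pairs to pass alone after adjustment, so the order is described. Collecting duct principal cells had too few libraries to fit. Alternatives were no low-count filter, RLE scaling, DESeq2, a stricter gate and cell filter, the gene list as a covariate, a replicate block, and leaving out shared barcodes or each library. A 20% mitochondrial limit in kidney, leaving out both kidney libraries SARAWT vehicle 3 and aristolochic acid 1, leaving out the richest cell and splitting gates by Ly6c2, Plac8, neutrophil markers, all monocyte markers or Pi16 were chosen after seeing the data. Same-numbered libraries deviated together in skin macrophages (r = 0.23 to 0.55), monocytes (0.13 to 0.38) and stromal cells (0.18 to 0.35), so directions within pairs were added there. Libraries of unlike number had r of -0.43 to 0.27, -0.26 to 0.071 and -0.24 to 0.053 in these classes. In macrophages PBS 1 with bleomycin 2 (r = 0.273) lay above same-numbered pair 2 (r = 0.231), so the number does not set pairs apart there. The number also follows counting run and sex, with libraries 1 and 2 apart from 3. The labels do not say what it marks. Scripts were tested on simulated counts. Other tools were Python 3.11.15, numpy 2.4.6, pandas 2.3.3, scipy 1.17.1 and matplotlib 3.10.9.

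Members that passed the low-count filter in a compared class are given there; pathway genes are named up to 4 per direction by fold among those at 10 CPM or more. The members and gene lists were chosen with earlier results of these data known.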

Additional observations from a re-analysis of the deposited data

Results flagged for a closer look

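In skin keratinocytes Orm1 was higher in every SARAWT bleomycin library than in every SARAWT PBS library (means 17.3 and 69.7 CPM), while the SARATg libraries went the other way, from 61.2 CPM with PBS to 34.8 CPM with bleomycin. For Serpina3g the SARAWT means were 13.9 and 33.0 CPM, and the SARATg levels were 22.5 CPM with PBS (95% counting interval 18.3 to 27.4) and 17.9 CPM with bleomycin (13.5 to 23.2), whose intervals overlap, so a direction in SARATg is not shown beyond counting error. Both were singled out because the SARATg values lay in the opposite direction to SARAWT. The difference between genotypes was not tested, since SARATg had 1 library per group. The genotype labels are themselves in doubt: the library labelled SARAWT PBS 3 had mouse Zfyve9 at 621 CPM, and human ZFYVE9 was at 843, 188, 87.8 and 113 CPM in SARAWT PBS 1, PBS 2, bleomycin 1 and bleomycin 2.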

How the results depend on the processing

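The number of members past the threshold was 0 in every tested comparison and stayed so in 177 of 184 alternatives. With a replicate block it was 1 in skin neutrophils (Saa3, edgeR adjusted p = 0.0398). Without the low-count filter it was 1 in skin endothelial cells (Serpina3n) and 1 in keratinocytes (Orm1, edgeR adjusted p = 5.29e-06), and by DESeq2 1 in keratinocytes. Leaving out single libraries gave 0 to 2 in kidney proximal tubule and 0 to 2 in kidney macrophages, the 2 in each without vehicle 3, and leaving out both vehicle 3 and aristolochic acid 1, which stood apart from their groups in some measures, gave 2 in macrophages. The causes were not tested.

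Replicate numbers were not taken to pair samples in the tested comparisons: in none with 3 pairs was every correlation over 0.1, and 2 pairs are too few to decide, although r was 0.35 and 0.52 in skin T, NK and innate lymphoid cells and 0.24 and 0.54 in mast cells. The replicate block moved the count of all genes to 15 in neutrophils, 22 in T, NK and innate lymphoid cells, 8 in mast cells, 180 in skin endothelial cells, 66 in keratinocytes, 28 in kidney endothelial cells, 5 in thick ascending limb and 6 in intercalated cells, and left it at 0 in the other 5. The block turned Serpina3g in kidney B cells to 0.039 (log2), and it was 0.25 without both of those libraries. Leaving out single libraries moved log2 fold changes from -0.66 to 0.050 for Cp in skin endothelial cells, -0.60 to 0.27 for Serpina3g in skin T, NK and innate lymphoid cells, -0.44 to 0.90 for Saa3 and -0.47 to 4.76 for Serpina3g in kidney macrophages, -0.50 to 2.70 in kidney T and NK cells, -0.58 to 0.69 in B cells and -6.88 to 0.50 in kidney endothelial cells, where DESeq2 gave -0.15. Leaving out single libraries, the log2 ratio of Hp in skin macrophages ran from 3.59 to 5.06, and that of Serpina3c in stromal cells from -2.49 to -1.45; without shared barcodes they were 3.23 and -1.18. Of 222 alternatives for named members, 195 kept direction and call, 9 passed newly and 18 turned. Counts over all genes ranged over the alternatives from 0 to 24 in skin neutrophils, 0 to 186 in T, NK and innate lymphoid cells, 0 to 38 in mast cells, 2 to 188 in skin endothelial cells and 0 to 422 in keratinocytes. In kidney they ranged from 0 to 477 in proximal tubule, 0 to 156 in thick ascending limb, 0 to 339 in distal tubule, 0 to 167 in intercalated cells, 0 to 111 in endothelial cells, 0 to 1247 in macrophages, 0 to 227 in T and NK cells and 0 to 110 in B cells. Few UMIs limit some values: Hp in PBS macrophages rests on 3, 1 and 27 UMIs in 1268, 134 and 651 cells.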
